A study of Mus musculus with 125 samples.

Results

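Chromatin accessibility was compared between leukaemia cells of line B that had outlived a 10-day co-culture with natural killer (NK) cells and the same line grown without NK cells. Line B models B-cell acute lymphoblastic leukaemia (B-ALL): bone marrow of C57BL/6 mice was transformed by a retrovirus carrying the BCR/ABLp185 fusion kinase, and the line carries a lentiviral barcode library with GFP. The libraries were chosen by their labels alone: 12 of the 125 in the series, from experiments 9.5 and 9.6, with 3 libraries in each of 4 groups. B-ALL alone was sampled at timepoint_1, day 4, and B-ALL + NK at timepoint_2, day 10. Co-cultures started from equal numbers of leukaemia cells and IL-2-activated splenic NK cells of mice, fresh NK cells were added at harvest, and every culture held recombinant human IL-2. GFP+ cells were sorted before ATAC-seq, which marks open DNA by where Tn5 can place its adapters. No culture alone was sampled at day 10, so the length of culture, NK exposure and the selection of cells that outlived the NK cells cannot be told apart. For the second harvest the study's text names a later day than the labels do. Line A was barcoded from the same parental line, so lines A and B are not independent models.

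NK cells kill by releasing perforin and granzymes and by engaging death receptors, and they secrete interferon-γ (IFN-γ). IFN-γ acts through its receptor on genes with GAS elements, and it raises IRF1 and other interferon regulatory factors that bind interferon-stimulated response elements (ISREs). Known IFN-γ-induced genes encode immunity-related GTPases, guanylate-binding proteins and the antigen presentation machinery. An ATAC-seq peak reports how open a stretch of DNA is, not how much RNA its neighbour makes, and in a sorted bulk population a larger share of open cells and more open chromatin per cell cannot be told apart.

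Stretches of the GRCm38 genome from 5 gained peaks are shown because they hold the letters GAAANNGAA, the ISRE core searched here on either strand, within 300 bp at the peak centre. They were read 5′ to 3′, with 40 bases on each side of the matches, and capitals mark the matches. The Serpina3f stretch is the minus strand of chr12:104214377-104214471, and its capitals also cover a GAS match (TTCNNNGAA) that overlaps the ISRE core. The others are on the plus strand: Gm8369 at chr19:11494684-11494802, Ms4a4d at chr19:11540293-11540411, Igbp1 at chrX:100508148-100508236 and Secisbp2l at chr2:125777093-125777181.
Serpina3f: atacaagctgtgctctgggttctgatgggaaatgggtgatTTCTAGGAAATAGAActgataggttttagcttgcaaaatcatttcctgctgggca
Gm8369: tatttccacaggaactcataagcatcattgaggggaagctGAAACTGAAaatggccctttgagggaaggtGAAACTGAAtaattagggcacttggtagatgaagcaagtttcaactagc
Ms4a4d: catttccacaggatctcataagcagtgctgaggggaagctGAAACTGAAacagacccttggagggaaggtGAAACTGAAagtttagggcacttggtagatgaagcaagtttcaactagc
Igbp1: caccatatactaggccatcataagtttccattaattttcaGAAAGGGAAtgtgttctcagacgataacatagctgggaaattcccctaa
Secisbp2l: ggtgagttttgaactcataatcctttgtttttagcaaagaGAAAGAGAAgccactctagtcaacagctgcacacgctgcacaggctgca
The Gm8369 and Ms4a4d stretches lie 45609 bases apart, each holds 2 ISRE cores with starts 30 bases apart, and 106 of their 119 bases (89.1%) were identical. Over 300 bases around the first match, 62.0% were identical, so reads of these neighbours could in part be shared.

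The 12 libraries held 3083547 to 7653465 counts in consensus peaks, with a median of 6551542. The shallowest library was replicate 2 with NK cells in experiment 9.5. Tested peaks took 73.6 to 81.5% of the counts in cells alone and 64.2 to 79.7% with NK cells, and in experiment 9.6 the arms did not overlap in this share (73.6 to 74.9% against 64.2 to 69.7%). Its part in the results was not tested. The first principal component, 51.8% of the variance, separated the experiments, and the second, 18.5%, separated the arms. Replicates of a group differed by more than counting noise in every pair, with a chi-square of 1.163 to 2.914 per degree of freedom. Defining B-lineage promoters had counts in every library: the promoter peak of Cd79a, which encodes a B cell receptor signalling subunit, had 62.0 to 132 CPM alone and 56.3 to 126 CPM with NK cells. The lowest of them, Rag1, had 8.83 to 17.3 CPM alone and 7.27 to 13.6 CPM with NK cells. Levels were similar at the NK cell marker Eomes, with 10.3 to 16.2 CPM and 9.35 to 17.8 CPM. CPM are counts scaled to a common library total, adjusted by the TMM normalization factor.

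Accessibility was gained at 1394 peaks and lost at 439 of the 36171 tested in B-ALL + NK at day 10 against B-ALL alone. These are 3.85% and 1.21% of the tested peaks, called at an adjusted p of at most 0.05 and a log2 fold change of at least 0.58 in either direction. Gained peaks started low, with a median of 4.41 CPM alone against 13.6 CPM over all tested peaks, and reached a median of 8.0 CPM. Lost peaks went from a median of 8.71 CPM to 4.97 CPM. At 967 gains (69.4%) and 291 losses (66.3%), the 3 libraries with NK cells lay beyond all 3 libraries alone in each experiment. Over all 36171 tested peaks, 1762 stood apart upward and 1450 downward in this way. The gains and losses were called in these same libraries, which favours such separation. Changes past a fold of 2 numbered 361 gains and 56 losses, and those past a fold of 4 numbered 48 and 1. The test was edgeR's quasi-likelihood F-test with experiment as a term and Benjamini-Hochberg adjustment over all tested peaks, which was used for every adjusted p given here. Gains were 76.1% of the calls, and 56.8% when the arms were centred along the level of the peaks by a loess offset (964 gained, 733 lost, of which 944 and 424 were also called in the main scaling). With all 256397 consensus peaks that had counts in the fit, they were 40.3% (2098 gained, 3110 lost), and that scaling moved the median log2 fold change of the 36171 peaks from -0.01 to -0.27. Only 505 of the 1394 gains of the main fit were still called gained there, while all 439 losses were still called lost.

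**Figure D1:**
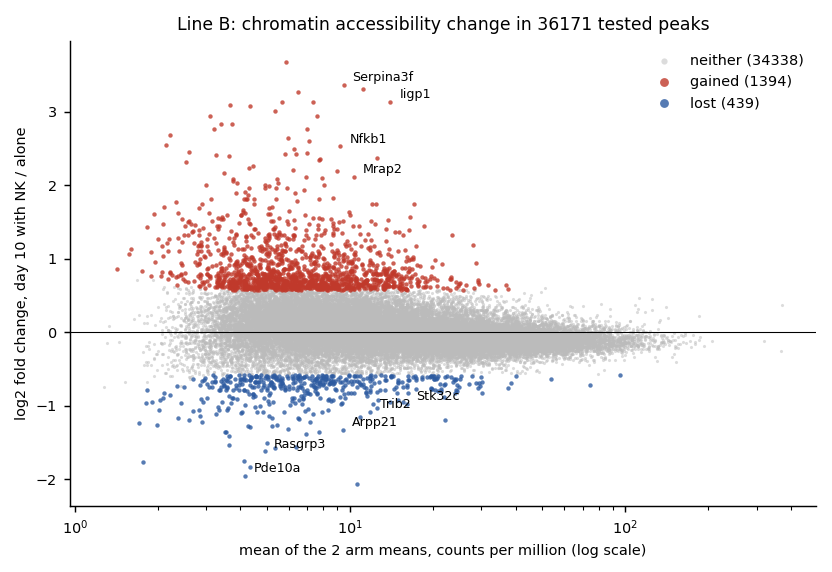
Each point is 1 of the 36171 tested peaks, with the average of the arm means in CPM on a log axis and the log2 fold change of B-ALL + NK at day 10 over B-ALL alone. The 1394 gained peaks (red) reach 3.68 and sit mostly at low levels, while the 439 lost peaks (blue) reach -2.07; a few peaks named in the text are labelled.

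The promoter-proximal gains, within 3 kb of a transcription start site (TSS), were led by interferon-inducible GTPase genes and a serpin. Of 14928 tested peaks within 3 kb of a TSS, 247 (1.65%) were gained and 110 (0.737%) lost. The peak 202 bp from the TSS of Serpina3f, which encodes a serine protease inhibitor, lies at chr12:104213545-104215139. It measured 2.13, 2.42 and 1.15 CPM alone and 19.4, 23.7 and 18.9 CPM with NK cells in experiment 9.5. In experiment 9.6 the values were 1.43, 1.54 and 1.22 CPM against 12, 14.7 and 15.1 CPM. The arms did not overlap, and the fitted log2 fold change was 3.37 ± 0.17 (SE, adjusted p = 1.09e-21). The Nfkb1 gene, which encodes the p105/p50 subunit of NF-κB, gained an intronic peak 1728 bp from a TSS (chr3:135665201-135666941). That peak measured 1.79 to 4.18 CPM in the 6 libraries alone and 11.7 to 21.1 CPM in the 6 with NK cells (log2 fold change 2.53 ± 0.16, adjusted p = 2.16e-17). Apol7e, of the apolipoprotein L family, gained its promoter peak (chr15:77698396-77699772) from 0.475 to 1.95 CPM alone to 3.76 to 12 CPM with NK cells, a log2 fold change of 2.24 ± 0.23. Gm8369 gained a peak 2716 bp from its TSS (chr19:11494004-11495504), from 0.238 to 1.28 CPM alone to 4.41 to 9.72 CPM.

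The strongest cluster of gains was on chromosome 18, where 10 of 10 tested peaks between 60201590 and 60383399 were gained, with log2 fold changes of 2.06 to 3.31. This stretch holds the immunity-related GTPase genes Gm4951, Gm4841, F830016B08Rik and Iigp1, which encode IFN-γ-inducible proteins acting on the vacuoles of intracellular pathogens. The Gm4951 promoter peak measured 0.887, 1.35 and 0.768 CPM alone and 16.8, 16.2 and 14.8 CPM with NK cells in experiment 9.5. In experiment 9.6 it measured 4.04, 2.56 and 3.15 CPM alone and 24.3, 24.2 and 24.3 CPM with NK cells. Levels were thus higher in both arms of experiment 9.6, and the arms stood apart in each (log2 fold change 3.31 ± 0.16, adjusted p = 6.29e-22). Gm4841 went from 1.28 ± 1.02 to 11.7 ± 2.76 CPM (SD, n = 6 libraries of both experiments) and the F830016B08Rik promoter from 1.67 ± 0.421 to 13.5 ± 3.45 CPM. The Iigp1 peak 847 bp from a TSS measured 1.42, 1.48 and 1.15 CPM alone in experiment 9.5 and 4.75, 4.87 and 4.02 CPM alone in experiment 9.6. With NK cells it reached 21.1 to 24.7 CPM and 25.7 to 28.0 CPM in the same order. These genes are related copies, and reads that match several of them cannot be assigned with certainty.

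**Figure D2:**
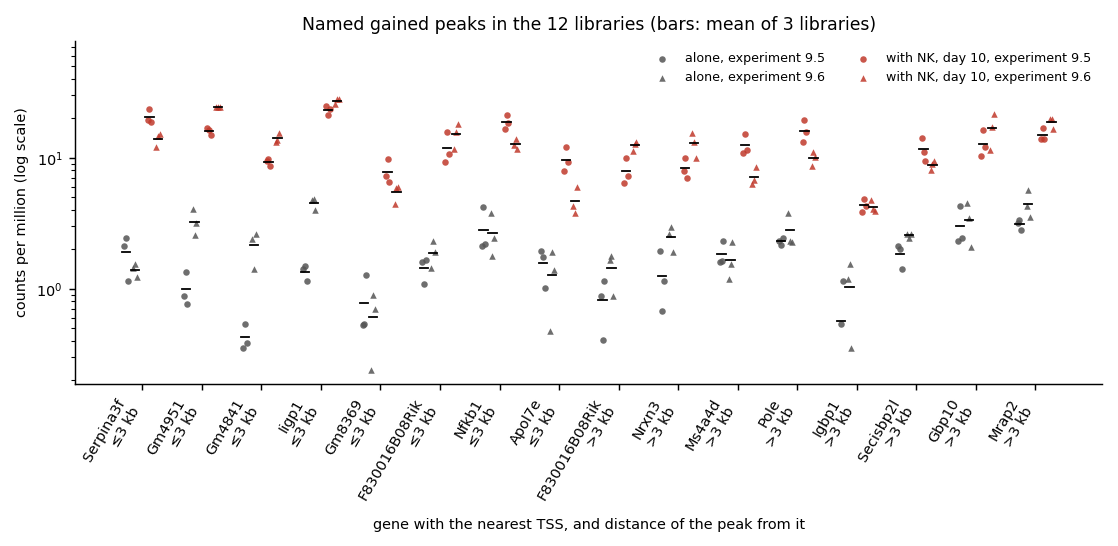
CPM on a log axis for the 16 named gained peaks in each of the 12 libraries, with grey points for B-ALL alone, red points for B-ALL + NK at day 10, circles for experiment 9.5, triangles for experiment 9.6 and bars for the mean of 3 libraries. The rule that chose the peaks required red and grey points apart within each experiment; the Igbp1 peak had no count in 1 library alone, which the log axis leaves out.

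Among gained peaks 3 to 50 kb from the TSS of a protein-coding gene and with arms apart in each experiment, the 8 largest were in introns. Besides a second F830016B08Rik peak (1.13 ± 0.525 to 10.2 ± 2.83 CPM, SD, n = 6), their nearest TSSs were those of Nrxn3, Ms4a4d, Pole, Igbp1, Secisbp2l, Gbp10 and Mrap2. Peaks outside the lists are named by the gene with the nearest TSS. Intronic means within an intron of any annotated gene, which need not be the gene named. Nrxn3 encodes a neurexin, a synaptic adhesion protein, and its intronic peak 47382 bp from a TSS measured 0.673 to 2.95 CPM alone and 6.98 to 15.4 CPM with NK cells. The Ms4a4d peak (chr19:11539684-11540918) measured 1.19 to 2.30 CPM alone and 6.31 to 15.2 CPM with NK cells. Pole encodes the catalytic subunit of DNA polymerase ε, and the peak named after it rose from 2.55 ± 0.622 to 13 ± 3.96 CPM (SD, n = 6). Mrap2, an accessory protein of melanocortin receptors, had an intronic peak at chr9:87162384-87164810 with 2.82 to 5.64 CPM alone and 13.9 to 19.8 CPM with NK cells. Fold changes of these 8 peaks were between 2.12 and 3.13 on the log2 scale. The peak with its nearest TSS at Gbp10 belonged to a run of 9 gained peaks among 10 tested at chr5:105190914-105356953. This run lay over Gbp10, Gbp6 and Gbp11, which encode guanylate-binding proteins. The largest gain of all was at a peak nearest to Gm7726, outside the rule for named genes and singled out after its value was seen, with 0.816 CPM alone and 10.9 CPM with NK cells (log2 fold change 3.68 ± 0.21).

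In each list a gene was represented by the promoter peak nearest to its TSS. All lists were written with earlier results of these data known, so their counts give no independent evidence. Over all promoter peaks 1.65% were gained and 0.737% lost, with a median log2 fold change of -0.07. Of the IFN-γ-induced GTPases 9 of 20 measured members (21 listed) were gained and none lost, with a median of 0.45. The 9 were Iigp1, Gm4951, Gm4841, F830016B08Rik, Gbp6, Gbp10, Gbp11, Irgm2 and Tgtp2. The Gbp10 promoter measured 3.37 to 7.69 CPM alone and 11.8 to 18.8 CPM with NK cells, and the Gbp6 promoter, which overlaps Gm43302, 3.90 to 9.51 CPM and 17.7 to 18.8 CPM. The smallest of the 9 calls, Tgtp2 (log2 fold change 0.58 ± 0.10), fell short of the threshold before rounding under 13 of the alternatives tried, with values of 0.32 to 0.58. Among members that did not reach the fold threshold, Gbp2 had 39.4 CPM alone and 49.0 CPM with NK cells, and Gbp3, Gbp5, Gbp7 and Gbp9 had log2 fold changes of -0.07 to 0.07. Counting all tested peaks within 50 kb, 17 of 41 near these genes were gained, beside 3.85% of all tested peaks.

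Antiviral interferon-stimulated genes were gained at 6 of 51 measured promoters and lost at none, with a median of 0.13, against 1.65%, 0.737% and -0.07 over all promoter peaks. The 6 were Mx1, Lgals3bp, Rtp4, Xaf1, Ifi27 and Oas3. Mx1 encodes a dynamin-like GTPase that restricts influenza viruses, and its promoter peak (chr16:97461676-97464216) measured 2.13, 3.50 and 1.92 CPM alone against 5.66, 4.86 and 7.87 CPM with NK cells in experiment 9.5. In experiment 9.6 it measured 2.38, 2.44 and 3.32 CPM against 11.7, 15.7 and 14.1 CPM, so the arms stood apart in both (log2 fold change 1.89 ± 0.19, adjusted p = 5.14e-11). Lgals3bp, which encodes galectin-3-binding protein, rose from 7.83 ± 2.10 to 26.2 ± 8.21 CPM (SD, n = 6). Ifi27 rose from 7.55 to 9.87 CPM alone to 12.8 to 15.5 CPM (log2 fold change 0.70 ± 0.12). Isg15, Ifit2 and Mx2 had log2 fold changes of -0.10, 0.01 and 0.07, and Ifi208 had -0.54. Among 26 promoters of interferon signalling and feedback, Irf9 (24.6 to 39.1 CPM, log2 fold change 0.65 ± 0.08), a component of the ISGF3 complex, and Batf2 (1.11 ± 0.19) were gained. The receptor genes Ifngr1 and Ifngr2 had log2 fold changes of -0.19 and -0.13 and Irf1 had 0.15, none past both thresholds. Socs1 and Pias1, which encode inhibitors of JAK-STAT signalling, had flat promoters (0.00 and -0.13) and a gained peak each, 44542 bp and 8411 bp from the TSS (0.73 ± 0.12 and 1.51 ± 0.15).

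At MHC class I genes 0 of 25 measured promoters were called, 2 had an adjusted p under 0.05 without reaching the fold threshold, and B2m, H2-K1 and Tap1 had log2 fold changes of -0.10, -0.04 and 0.09. At MHC class II genes 4 of 12 promoters were gained, beside 1.65% of all promoter peaks, with a median of 0.18: H2-Aa, H2-Eb1, H2-DMb1 and the transactivator gene Ciita. H2-Ab1 and H2-DMa were among the other 8, at -0.04 and 0.13. The difference between the classes was not tested. H2-Aa measured 9.27 to 14.1 CPM alone and 18.8 to 24 CPM with NK cells (log2 fold change 0.83 ± 0.10, adjusted p = 2.92e-08), without overlap. The H2-Eb1 peak overlaps Gm20513. Ciita (0.59 ± 0.09) fell short of the fold threshold under DESeq2's size factors and in 5 of the 12 fits without 1 library, and 3 of its peaks within 50 kb were gained. H2-DMb1 (0.68 ± 0.16) had 6.02 ± 1.28 CPM alone and 9.73 ± 3.45 CPM with NK cells (SD, n = 6), and its arms overlapped in experiment 9.6. It fell to 0.56 without replicate 3 with NK cells of that experiment.

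Genes listed for NK cell recognition and killing were mostly uncalled, as promoter peaks were in general. Of all promoter peaks 1.65% were gained and 0.737% lost, so a list without calls does not set its genes apart. Of 10 measured genes listed as inhibitors of killing, Serpina3f and Serpina3g were gained. Serpinb9, an inhibitor of granzyme B, had 31.7 CPM alone and 34.2 CPM with NK cells (log2 fold change 0.12 ± 0.09). Whether Serpina3f or Serpina3g affects killing by NK cells was not tested. The Serpina3g promoter measured 0.512 to 2.10 CPM alone and 3.56 to 6.05 CPM with NK cells. Fas, the death receptor gene, was the 1 gain among 16 death receptor, caspase and BCL2 family promoters, from 8.79 to 11.4 CPM alone to 16.7 to 20.9 CPM with NK cells (log2 fold change 0.95 ± 0.11). No promoter was called among 13 checkpoint and inhibitory ligands or 12 activating NK ligands and adhesion genes. In the first of these Cd274, which encodes PD-L1, had 15.4 CPM in both arms. In the second, 3 were lower by adjusted p alone, among them the NKG2D ligand genes Raet1e and H60b, which share a promoter peak (-0.39 ± 0.11).

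Genes of the Ly6 and PLAAT list were gained at 4 of 5 measured promoters, beside 1.65% of all promoter peaks. The list was built around genes the study named from these cultures and so gives no independent evidence of direction. Ly6a, which encodes the surface antigen Sca-1, measured 20.9, 16.3 and 19.8 CPM alone and 44.7, 42.1 and 38.6 CPM with NK cells in experiment 9.5. In experiment 9.6 it measured 16.4, 16.0 and 12.9 CPM against 29.0, 38.1 and 41.3 CPM (chr15:74995796-75000804, log2 fold change 1.19 ± 0.09, adjusted p = 3.19e-14). Pla2g16, the older symbol of Plaat3, a phospholipase gene, went from 9.27 to 12.8 CPM alone to 12.8 to 23.2 CPM (0.62 ± 0.11) and fell to 0.55 and 0.56 in the fits without replicate 1 of experiment 9.5 or replicate 3 of experiment 9.6 with NK cells. Ly6d (0.61 ± 0.12) fell under the threshold with the loess offset (0.55) and in 4 of the fits without 1 library. Ly6c1 (0.58 ± 0.21, adjusted p = 0.0435) was called at the edge and lost its call in 6 of the 12 fits without 1 library. Ly6e was not called, with 72.3 CPM alone and 80.7 CPM with NK cells. With the loess offset 2 of the 5 promoters were called. Chemokine promoters were gained at Ccl12 (1.41 ± 0.20) and Ccl5 (0.65 ± 0.18) among 3 measured, and Ccl5 was at 0.51 without replicate 3 alone of experiment 9.5 and at 0.57 without replicate 3 with NK cells. The 1 measured Ms4a promoter, Ms4a1, was at 0.45. Among 19 TNF and NF-κB pathway genes the promoter peak nearest to the TSS was called in none, where 1.65% were gained and 0.737% lost over all promoter peaks. Within 50 kb 4 of 44 peaks were gained, near Nfkb1, Relb and Tnfaip3, beside 3.85% of all tested peaks.

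**Figure D3:**
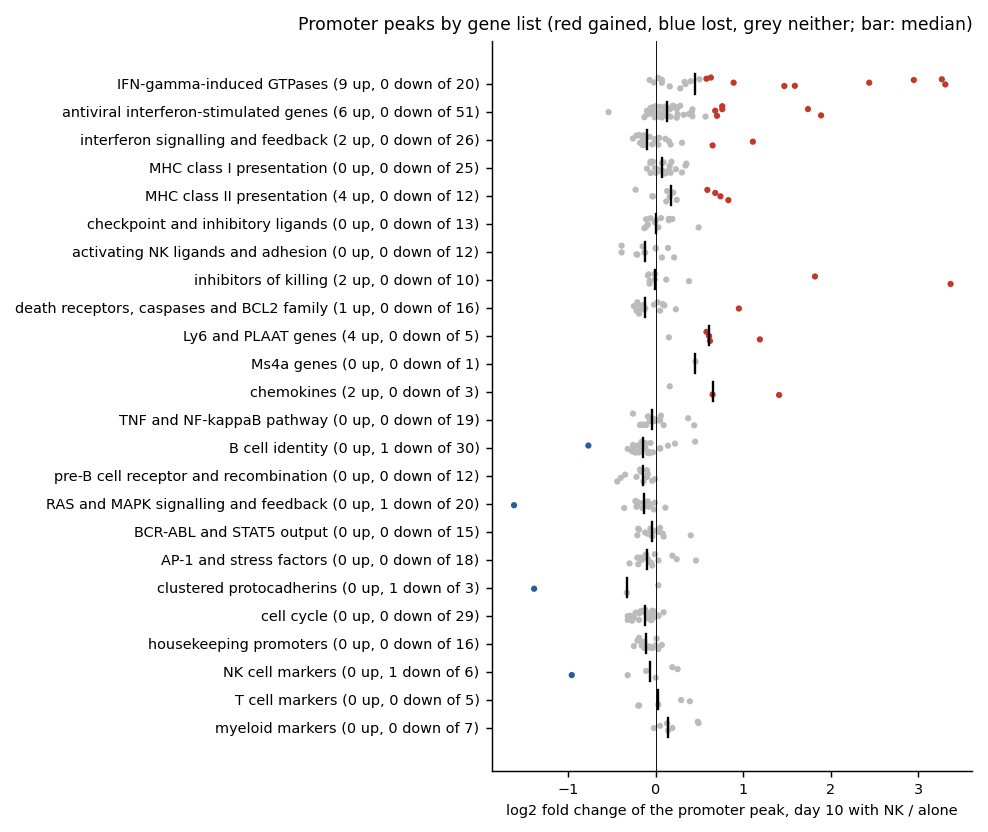
Each point is the log2 fold change of the promoter peak of 1 gene in 1 of 24 lists, red where gained, blue where lost and grey where neither, and the bar is the median of the list. Gained promoters number 9 of 20 IFN-γ-induced GTPases, 6 of 51 antiviral genes, 4 of 12 MHC class II genes and 4 of 5 Ly6 and PLAAT genes, and B cell identity, RAS and MAPK, protocadherin and NK marker lists hold 1 lost promoter each. Over all promoter peaks 1.65% were gained and 0.737% lost. All lists were written with earlier results of these data known.

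The largest named loss within 3 kb of a TSS was at Rasgrp3. This gene encodes a guanine nucleotide exchange factor for RAS and lost its promoter peak at chr17:75464636-75466279. It measured 3.55, 4.44 and 4.74 CPM alone and 1.01, 0.648 and 1.48 CPM with NK cells in experiment 9.5, and 11.2, 11.4 and 9.27 CPM against 4.26, 3.11 and 3.73 CPM in experiment 9.6. The level alone was thus higher in experiment 9.6, and the arms stood apart in both experiments (log2 fold change -1.62 ± 0.18, adjusted p = 2.56e-09). Pcdhac1, a clustered protocadherin, showed the same layout, with 4.08 to 5.66 CPM alone and 2.22 to 2.59 CPM with NK cells in experiment 9.5, and 14.2 to 15.9 CPM against 4.86 to 5.67 CPM in experiment 9.6. Promoter peaks of St5, Trib2, Gprin3 and Stk32c fell by 0.97 to 1.16 on the log2 scale. Trib2 encodes a pseudokinase of the tribbles family, and its peak (chr12:15814475-15818051) went from 16.1 ± 7.29 to 7.64 ± 3.83 CPM (SD, n = 6 over both experiments).

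Among lost peaks 3 to 50 kb from the TSS of a protein-coding gene and with arms apart in each experiment, the largest lay near Pde10a, Cnksr3, Arpp21, Sdr9c7, Bnc1 and Wasf3. Pde10a encodes a cyclic nucleotide phosphodiesterase, and its intronic peak at chr17:8856321-8857270 measured 3.71 to 8.33 CPM alone and 1.04 to 2.43 CPM with NK cells, without overlap (log2 fold change -1.95 ± 0.21, adjusted p = 3.99e-10). Arpp21, which encodes a cAMP-regulated phosphoprotein, held 3 lost peaks, and the largest (chr9:112207723-112209110) went from 10.6 to 16.5 CPM alone to 2.59 to 6.98 CPM with NK cells. Adgrf1, an adhesion G protein-coupled receptor gene, also had 3 lost peaks, with log2 fold changes of -0.80 to -0.68. The other 4 named distal losses had log2 fold changes of -1.36 to -1.22. The largest loss of all was a peak nearest to 2610035D17Rik, outside the rule for named genes and singled out after its value was seen. It went from 17.1 to 4.07 CPM (log2 fold change -2.07 ± 0.15).

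**Figure D4:**
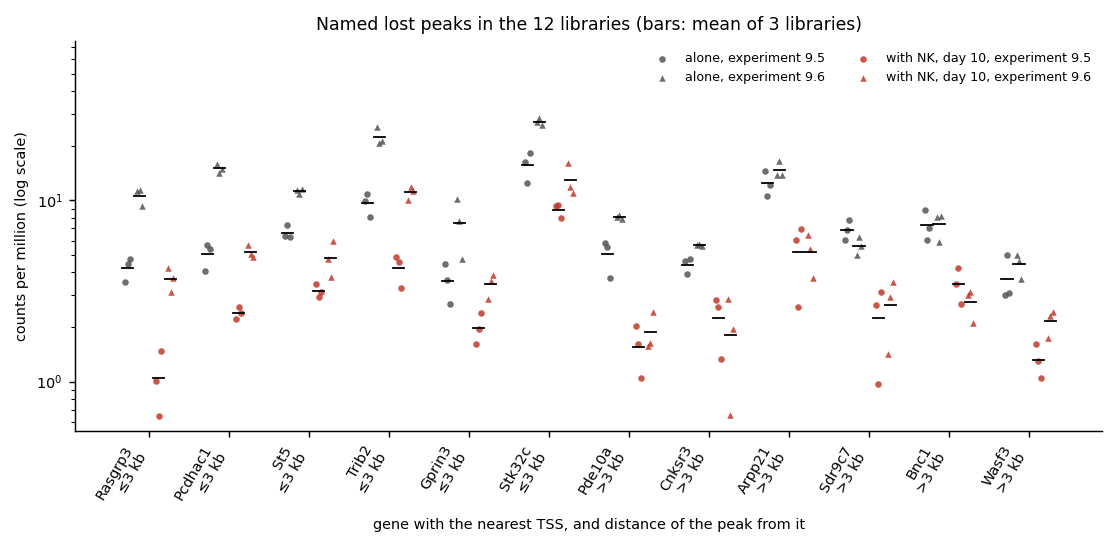
CPM on a log axis for the 12 named lost peaks in each of the 12 libraries, with grey points for B-ALL alone, red points for B-ALL + NK at day 10, circles for experiment 9.5, triangles for experiment 9.6 and bars for the mean of 3 libraries. The rule that chose the peaks required red points below grey points of the same experiment, and the Rasgrp3, Pcdhac1, St5, Trib2, Gprin3 and Stk32c peaks are higher in both arms of experiment 9.6.

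Few promoters of the leukaemic B cell programme were called, as among all promoter peaks, of which 1.65% were gained and 0.737% lost. Among 30 B cell identity promoters, Ikzf3, which encodes the transcription factor Aiolos, was the 1 loss (14.7 to 20.1 CPM alone, 8.10 to 12.3 CPM with NK cells, log2 fold change -0.77 ± 0.11), and none was gained. Without the fold threshold 7 were lower by adjusted p, among them Cd24a (-0.25 ± 0.07) and Lyn (-0.24 ± 0.08), and the list's median was -0.15 against -0.07 over all promoter peaks. Of 12 pre-B cell receptor and recombination promoters none was called, with Flt3 at -0.44 ± 0.10 and Rag2 at -0.40 ± 0.11, and the median was -0.15. Under the loess offset these medians were -0.05 and -0.07. In the RAS and MAPK list 1 of 20 promoters, Rasgrp3, was lost, and 6 others were lower by adjusted p without reaching the fold threshold, among them Dusp4 (-0.36 ± 0.07) and Dusp6 (-0.21 ± 0.07), phosphatases that inactivate MAP kinases. Rasgrp1 had a flat promoter (0.11) and 2 gained peaks within 50 kb (0.95 ± 0.13 and 0.61 ± 0.18). None of 15 BCR-ABL and STAT5 output, 18 AP-1 and stress factor, 29 cell cycle or 16 housekeeping promoters was called, with medians of -0.04, -0.10, -0.12 and -0.11. Of 26 peaks within 50 kb of the housekeeping genes 2 were gained, near Actb (1.17 ± 0.14) and Hprt (0.71 ± 0.15). Pcdhac1 was the 1 loss among 3 measured clustered protocadherins. Of 44 peaks within 50 kb of the BCR-ABL and STAT5 output genes 2 were gained, near Myc and Pim2 (0.66 ± 0.16 and 0.86 ± 0.13), beside 3.85% of all tested peaks.

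Markers of NK, T and myeloid cells were measured in both arms. The summed promoter level of 18 NK cell markers with a consensus peak was 63.8 to 82.2 CPM alone and 62.8 to 92.7 CPM with NK cells, against 1274 to 1630 CPM and 1151 to 1535 CPM for 31 B cell identity genes. Of 6 NK marker promoters that passed the filter none was gained and 1, Klri2, was lost (5.0 CPM alone, 2.41 CPM with NK cells, log2 fold change -0.96 ± 0.22, with overlap in experiment 9.5). The shares over all promoter peaks were 1.65% gained and 0.737% lost. Gzma and Gzmb, which encode granzymes and were below the filter, reached 3.27 and 5.83 CPM in the highest library with NK cells against 1.05 and 2.82 CPM in the highest alone. Ncr1 and Cd3e had no consensus peak within 3 kb. T cell markers summed to 83.5 to 133 CPM alone and 92.5 to 127 CPM with NK cells, and myeloid markers to 49.3 to 58.2 CPM and 56.4 to 84.6 CPM, with 0 of 5 and 0 of 7 tested promoters called. By adjusted p alone, the T cell gene Trac (0.39 ± 0.13) and the myeloid genes Cd68 (0.49 ± 0.11) and Mpeg1 (0.48 ± 0.14) were higher with NK cells. The highest of the T cell promoters tested was Lat, with 42.6 CPM alone and 36.8 CPM with NK cells. Of the defining markers, Mpo alone was at 0, in a library with NK cells. The part of NK cells that passed the sort in the results was not tested.

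Called peaks lay away from promoters more often than tested peaks did. Only 17.7% of gains and 25.1% of losses were within 3 kb of a TSS, against 41.3% of all tested peaks, and 71.4% of gains and 56.3% of losses were 3 to 50 kb away, against 52.5%. The remaining 10.8% of gains and 18.7% of losses were farther than 50 kb, against 6.2%. Centres of gained peaks were in introns for 57.2%, between genes for 35.3%, in coding or noncoding exons for 4.2% and in UTRs for 3.3%. For lost peaks these shares were 52.2%, 37.4%, 4.3% and 6.2%, and for all tested peaks 49.6%, 33.3%, 7.6% and 9.5%. A broad peak was called in all 6 libraries alone at 17.5% of gains, 72.4% of losses and 72.8% of the tested peaks that were neither, and in all 6 with NK cells at 40.5%, 26.2% and 63.3%. The filter asked for a broad peak in every library of at least 1 group, so peaks without any in an arm had to pass through the other arm. No library alone had a broad peak at 10.9% of gains and 0.1% of peaks that were neither, and no library with NK cells had a broad peak at 18% of losses and 1.4% of peaks that were neither.

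Called peaks less than 50 kb apart were joined into runs. Of the gains, 1044 stood alone and the rest formed 137 runs, 17 of them with 4 or more peaks. Besides the GTPase runs, 8 of 8 tested peaks were gained at chr16:9008793-9094514, over noncoding genes only (0.86 to 1.57), and 5 of 7 at chr15:74995796-75142236, over Ly6a, Ly6c1 and Ly6c2. Near Tnfaip3, which encodes an inhibitor of NF-κB signalling, 4 of 4 tested peaks were gained (0.64 to 1.19), and near Tvp23a and Ciita 4 of 4 (0.59 to 0.89). A run over Traf6 and Prr5l held 4 gained peaks of 5 (0.69 to 1.64), and Spata13 held 4 of 5 (0.70 to 1.32). Losses formed 46 runs and 331 single peaks, and the 4 runs of 4 peaks lay at Tmprss3, at Coq7, Tmc7 and Tmc5, at A330074K22Rik and at Arpp21.

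The ISRE core stood in a larger share of gained peaks than of other tested peaks. Windows of 300 bp at the peak centre were read for 36138 of the tested peaks, 1392 gains and 438 losses. GAAANNGAA was present on either strand in 18% of gains, 8.9% of losses and 9.5% of all tested peaks. The share was 29.2% in the 360 windows of gains past a fold of 2 and 35.4% in the 48 past a fold of 4. The GATA motif, spelled AGATAA, also rose with the fold, from 11.4% of tested peaks to 16.2% of gains, 18.6% of those past a fold of 2 and 35.4% of those past a fold of 4. The ISRE core share was 16.2% in gains within 3 kb of a TSS, against 7.3% of all tested peaks there, and 18.4% in gains farther away, against 10.9%. The composite ETS-IRF motif GGAANNGAA, which differs from the ISRE core by a single letter, stood in 9.3% of gains and 9.6% of tested peaks. GAS (TTCNNNGAA) stood in 13.3% of gains, 11.4% of losses and 8.8% of tested peaks, and AP-1 (TGANTCA) in 11.9%, 8.9% and 8.2%. The GAS share rose with the fold as well, to 16.4% of gains past a fold of 2 and 20.8% past a fold of 4. AP-1 was at 11.4% and 14.6% there. The CTCF core CAGNNGGCG was rarer in gains (1.6%) and losses (3.2%) than in tested peaks (5.9%). In losses RUNX (TGTGGTT) stood in 12.6% against 8.3% of tested peaks, ETS (GAGGAAGT) in 7.1% against 4.3%, and OCT (ATGCAAAT) in 3.2% against 1.5%. For gains these shares were 10.5%, 3.7% and 1.4%, and RUNX stood in 10.8% of gains past a fold of 2 and 16.7% past a fold of 4. EBF (CCCNNGGGA) stood in 7.3% of gains, 10.3% of losses and 9.0% of tested peaks, the GATA motif in 15.5% of losses, and NF-κB (GGGANTTCC) in 1.2% of gains, 1.4% of losses and 1.4% of tested peaks. Median GC content was 46.3% in gained, 48.3% in lost and 51.0% in all tested windows, and its part in these shares was not tested. Shares also differed with distance. Tested peaks within 3 kb of a TSS held CTCF, RUNX, GATA and AP-1 motifs in 10.2%, 5.2%, 7.6% and 5.2%. Those farther away held them in 3.0%, 10.5%, 14.0% and 10.3%. For gains the shares were 2.4%, 6.9%, 12.1% and 8.5% within 3 kb, and 1.4%, 11.3%, 17.0% and 12.6% farther away. The part of distance in the shares of gains and losses was not tested. Of the 16 named gains 6 held an ISRE core and of the 12 named losses 1 did, and the Gm4951, Gm4841 and Nfkb1 windows held none.

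Each experiment had its own cultures alone, so the change could be compared between them. Fitted on its own 6 libraries, experiment 9.5 called 1018 of the 1394 gains and 268 of the 439 losses. Experiment 9.6 called 900 and 273, and 620 gains and 157 losses were called in each. Over all 36171 peaks, experiment 9.5 called 1493 higher and 582 lower, and experiment 9.6 called 1544 and 474. The pooled fit that chose the gains and losses used the same libraries, so these counts are not independent of it. The sign was shared in 1387 of 1394 gains and 438 of 439 losses, as the pooled fit that chose them favours. Across all 36171 peaks the log2 fold changes of the experiments had a Pearson correlation of 0.54, a description across peaks that share library depth and scaling. The named gains had a median log2 fold change of 2.76 in experiment 9.5 and 2.35 in experiment 9.6, and the named losses -1.11 and -1.30. A test of the difference itself called 4 peaks as higher (0.0111%) and 12 as lower (0.0332%) in experiment 9.6, of 4277 at an unadjusted p under 0.05. The Iigp1 peak was among them, with a log2 fold change of 4.11 in experiment 9.5 and 2.57 in experiment 9.6 (difference -1.52 ± 0.31, adjusted p = 0.0388), beside a higher level alone in experiment 9.6. These counts hung on single libraries: none was called without replicate 2 alone of experiment 9.5 or replicate 2 with NK cells of experiment 9.6. Without replicate 1 with NK cells of experiment 9.6 the test called 214 and 316. The count of higher peaks was also 0 without replicate 3 alone or replicate 1 with NK cells of experiment 9.5 or replicate 2 alone of experiment 9.6, 1 without replicate 3 with NK cells of experiment 9.5 and 2 without replicate 1 alone of experiment 9.6. The count of lower peaks was 35, 1, 2 and 5 without replicate 1 alone, replicate 3 alone, replicate 1 with NK cells or replicate 2 with NK cells of experiment 9.5.

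Line B was sampled again in experiment 9.7, with 3 libraries alone at day 6 and 3 with NK cells at day 16, none shared with the 12 libraries above. In that experiment 1098 of the 36171 peaks (3.04%) were higher and 642 (1.77%) lower with NK cells. Of the 1394 gains 426 (30.6%) were called higher again, 22 were called lower, and 1152 (82.6%) were above 0, against 47.9% of all tested peaks. Of the 439 losses 138 (31.4%) were called lower again, none was called higher, and 393 (89.5%) were below 0. Taken from the other list, 38.8% of the 1098 and 21.5% of the 642 were called here. All 16 named gains passed in experiment 9.7 (log2 fold changes 1.55 to 4.28), Serpina3f with 4.28 and Nfkb1 with 2.46. Of the 12 named losses 10 passed, and Stk32c (-0.54, adjusted p = 0.087) and Wasf3 (-1.28, adjusted p = 0.0521) did not. Ly6a was at 0.96 (adjusted p = 0.00534) and Pla2g16 at 0.78 (adjusted p = 0.0188), while Ly6d, at 0.61 in experiments 9.5 and 9.6, was at -0.59 (adjusted p = 0.0584). Of the other promoters gained in the lists, Mx1 (1.59), Lgals3bp (1.44), Ciita (0.73), Serpina3g (2.02) and the nearest Iigp1 peak (1.87) passed. So did Gbp6, Gbp10 and Gbp11 (1.3 to 1.9). Not past both thresholds were Oas3 (0.38), Rtp4 (0.2), Xaf1 (0.1), Ifi27 (0.65), H2-Aa (0.24), H2-DMb1 (0.12), H2-Eb1 (0.72) and Irf9 (0.25). The same held for Batf2 (0.78), Irgm2 (0.05), Tgtp2 (0.75), Fas (0.61), Ccl5 (0.67), Ccl12 (0.49) and Ly6c1 (-0.56). The counts in experiment 9.7 varied from 212 higher and 108 lower without replicate 2 alone to 2901 and 2345 without replicate 1 alone. They were 435 and 207 without replicate 3 alone, 247 and 130 without replicate 2 with NK cells, and 593 and 291 without replicate 3 with NK cells.

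Line A, from the same parental line, had 12 libraries of the same design in the same experiments, and 39009 peaks were tested in both lines. Its own day 10 comparison called 2766 peaks (7.09%) as higher and 1330 (3.41%) as lower with NK cells. Of the gains of line B 913 (65.5%) were called in line A, with a median log2 fold change of 0.77 there and 0.76 in line B. Of the losses 214 (48.7%) were called, with medians of -0.57 and -0.71. A call in only 1 line does not show a difference, so the difference was tested directly: the change was higher in line B at 334 peaks (0.856%) and lower at 263 (0.674%). None of the 16 named gains and 1 of the 12 named losses, Arpp21, differed between lines (-1.33 in line B, -0.46 in line A, difference -0.89, adjusted p = 0.0378). Lgals3bp gained more in line B (difference 0.66, adjusted p = 0.0349), and Ifi27 (-0.98, adjusted p = 0.00094) and H2-Eb1 (-0.59, adjusted p = 0.0437) gained less. The largest differences of each sign were at Pttg1ip, with 0.65 in line B and -1.23 in line A (difference 1.88 ± 0.21), and at Rbp2, with -0.03 and 1.83 (difference -1.85 ± 0.26). Without replicate 3 with NK cells of line A in experiment 9.6 the test called 552 and 504, and without replicate 2 with NK cells of line A in experiment 9.5 it called 186 and 170. The count of higher peaks was 220 without replicate 3 alone of line A and 218 without replicate 3 alone of line B, both in experiment 9.5. The count of lower peaks was 163 and 168 without replicate 1 alone of line A or of line B in experiment 9.6, and 165 without replicate 3 with NK cells of line B in experiment 9.5.

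**Figure D5:**
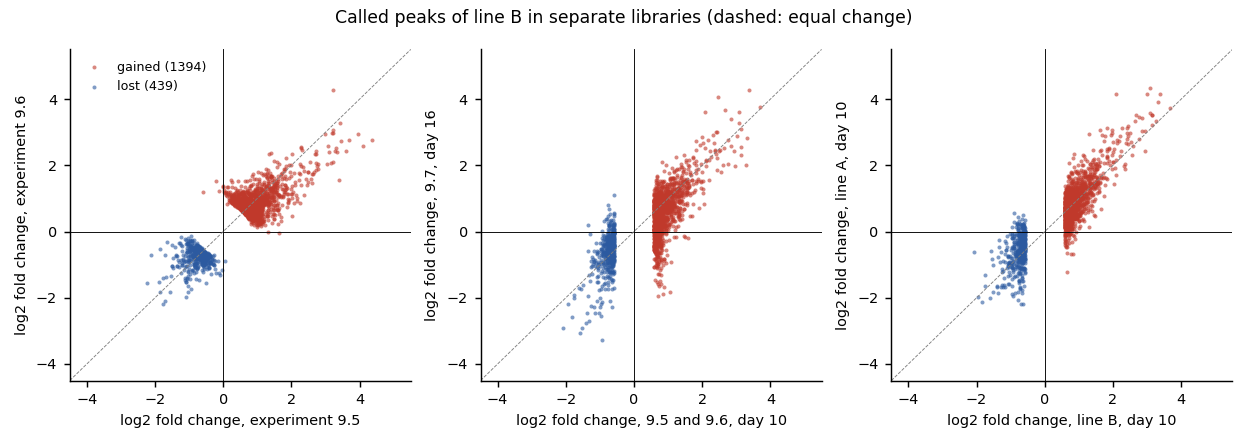
Log2 fold changes of the 1394 gained (red) and 439 lost (blue) peaks, as experiment 9.6 against 9.5, experiment 9.7 at day 16 against the pooled day 10 comparison, and line A against line B at day 10; the dashed line marks equal change. In experiment 9.7, 82.6% of gains lie above 0 and 89.5% of losses below it, while the pooled values choose the peaks and so leave a gap around 0.

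Co-cultures of line B were also sampled at day 4, with 6 libraries that share the cultures alone with the day 10 comparison. In a fit of all 18 libraries and 41830 peaks, 2725 peaks (6.51%) were higher and 302 (0.722%) lower at day 4 than alone. The day 10 libraries against the day 4 libraries with NK cells gave 124 higher peaks (0.296%) and 564 lower (1.35%), and this comparison shares its day 10 libraries with the one that chose the gains and losses. Side by side, the 1394 gains had a median log2 fold change over cells alone of 0.72 at day 4 and 0.74 at day 10, and the 439 losses had -0.38 and -0.74. The 16 named gains had medians of 2.84 and 2.49 and the 12 named losses -0.43 and -1.32. Serpina3f stood at 2.91 at day 4 and was higher by 0.46 ± 0.12 at day 10 (adjusted p = 0.0169), under the fold threshold, whereas both Iigp1 and Gm4951 were lower at day 10 (-0.62 and -0.61, adjusted p = 0.00139 for each). Rasgrp3 stood at -0.16 at day 4, and its peak fell by 1.56 on the log2 scale from day 4 to day 10 (adjusted p = 2.81e-05). Of the 12 named losses 11 were called lower at day 10 than at day 4, with values of -1.09 to -0.14 over cells alone at day 4 for the 12. A peak near Arfgef1, an exchange factor of ARF GTPases, also fell between the times, from 2.82 at day 4 to 1.32 at day 10. Peaks near Relb (-0.14 at day 4, 0.78 at day 10) and Cux1 (-0.16 and 0.70) were higher at day 10, as was a peak near Actb (0.27 and 1.14), while at day 16 of experiment 9.7 these peaks stood at -0.43, -0.39 and -0.16 against cells alone. The counts of higher peaks were 202 to 230 in the fits without replicate 1 or replicate 3 of experiment 9.5 at either time, and 190 with the loess offset. Those of lower peaks were 359 and 368 without replicate 3 of experiment 9.6 at day 4 or at day 10.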

How the data were processed

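ATAC-seq was measured in mouse B-ALL cells of line B, in 12 libraries with 3083547 to 7653465 counts each. The authors deposited counts of read pairs per consensus peak (256400 peaks), made with STAR on GRCm38, Picard 2.27.4, MACS2 2.2.7.1 broad peaks and featureCounts 2.0.1 (fraction overlap 0.2). The -log10 q-values are those of the deposited broad peaks, which the authors called per library, and served to find where a peak was called. Versions come from the submitters' processing notes and the study's methods, which name a human blacklist for this mouse genome. The study's methods give 3 biological replicates per condition, grown in separate wells of 1 line, and the labels do not tie libraries to wells, so p-values measure the spread between such cultures within an experiment.

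Counts were tested with edgeR 4.0.16 (R 4.3.3): TMM, robust quasi-likelihood F-test with experiment as a term, 9 residual degrees of freedom, and Benjamini-Hochberg adjustment. Tested peaks overlapped a broad peak by 1 bp in every library of at least 1 group and passed filterByExpr. Calls needed an adjusted p of at most 0.05 and an absolute log2 fold change of at least 0.58, the thresholds of the study, whose test was DESeq2. The SE was obtained by dividing the size of the log2 fold change by the root of its F statistic. The pipeline was tested on simulated data. Differences between experiments, lines and times were tested as terms of their own fits.

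Named peaks had arms apart in each experiment and a protein-coding gene nearest: the 8 largest gains and 6 largest losses within 3 kb of a TSS, and as many from 3 to 50 kb. Called list members, 5 genes named by the study and the 5 largest of each sign in each difference were added. Members and lists were chosen with earlier results of these data known. Replicate numbers did not pair the libraries. Alternatives were DESeq2 1.42.0, its size factors, a loess offset (limma 3.58.1), other peak filters, other thresholds, a replicate block, single experiments and leaving out each library. Sequences were read from RefSeq GRCm38, with GENCODE genes.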

Additional observations from a re-analysis of the deposited data

Results flagged for a closer look

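The change with NK cells at day 10 differed between experiments or between lines at 17 peaks named by the rule, each by a test of the difference itself in edgeR's quasi-likelihood fit (adjusted p at most 0.05). Between experiments, with 9.5 subtracted from 9.6, a peak 11576 bp from Upk3b differed by 1.21 (-0.11 in 9.5, 1.09 in 9.6). The Iigp1 peak differed by -1.52 (4.11 and 2.57), and a peak 4586 bp from Actb differed by -1.10 (1.65 and 0.53).

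With line A subtracted from line B, the change was higher in line B at Pttg1ip by 1.88, at 5330417H12Rik by 1.55, at Serpinh1 by 1.52, at Cyb5r2 by 1.48 and at Adamts7 by 1.42. In line A these peaks changed by -1.23, -1.98, -1.56, -2.20 and -1.54 in that order, and in line B by 0.65, -0.42, -0.05, -0.71 and -0.11. The 5330417H12Rik and Cyb5r2 peaks are neighbours on chromosome 7. The change was lower in line B at Rbp2 (-1.85), Zdhhc21 (-1.75), Gm11099 (-1.49), Btbd8 (-1.45) and Mctp2 (-1.43). In line A these rose by 1.83, 1.70, 1.18, 1.51 and 1.49, against -0.03, -0.04, -0.31, 0.06 and 0.06 in line B. Among peaks named for other reasons the differences were -0.89 at Arpp21, -0.98 at Ifi27, -0.59 at H2-Eb1 and 0.66 at Lgals3bp. Lines A and B come from 1 parental line, and the source of these differences was not tested.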

How the results depend on the processing

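All 56 named peaks kept their sign under every alternative that gave a value: of 1239 values 1170 stayed on the same side of the thresholds and 69 no longer passed, and 38 peaks passed throughout. The cause of the other changes was not tested. The day 10 comparison gave 733 losses with the loess offset and 2098 gains and 3110 losses with no filter, among them 505 gains and 439 losses of the main fit. It gave 296 and 77 among peaks called in every 1 of the 12 libraries, 192 and 66 where broad peaks had to cover a fraction of 0.5 of the peak, 290 and 84 when only peaks within 3 kb were fitted, and 361 and 56 at a log2 fold threshold of 1. Fewer peaks could be called under those 4. Leaving out 1 library gave 1253 to 1546 gains and 427 to 528 losses. Libraries of 3083547 to 7653465 counts limit what low peaks can show.

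The difference between experiments gave 28 lower peaks with size factors, 2 higher with the loess offset, 5 lower at a threshold of 1, and 0 higher and 19 lower with DESeq2. Leaving out 1 library gave 0 to 214 higher and 0 to 316 lower. Same-numbered libraries correlated by 0.001 to 0.295, so the numbers were not taken as pairs. The replicate block gave 185 and 230 there, 1462 gains and 444 losses at day 10, 464 and 360 for line B minus line A, and 106 and 456 for day 10 minus day 4.

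At a threshold of 1, line B minus line A gave 89 and 104, day 10 minus day 4 gave 0 and 78, experiment 9.7 gave 425 and 262, and day 4 gave 1124 and 5. With the loess offset, day 10 minus day 4 gave 190 higher and day 4 gave 680 lower. Leaving out 1 library gave 186 to 552 and 163 to 504 for line B minus line A, 90 to 230 and 359 to 626 for day 10 minus day 4, 212 to 2901 and 108 to 2345 for experiment 9.7, and 2448 to 2914 and 259 to 380 for day 4. Leave-one-out and loess fits of these other comparisons were chosen after seeing the data.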
